A study of Mus musculus with 3 samples.

Results

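The 150 most abundant antisense RNA genes of mouse embryoid bodies (EBs) were described in 3 RNA-seq libraries, C2 ceramide day 4, DMSO day 4 and DMSO day 3. They were taken from the 2991 genes that the deposited gene table of 55487 genes types as antisense, selected on the largest sum of estimated counts over the 3 libraries, leaving out the imprinted antisense RNAs Kcnq1ot1, Airn and Nespas (listed as Gnasas1). EBs are aggregates in which embryonic stem (ES) cells differentiate. These came from E14K mES cells, a wild-type line of 129P2/OlaHsd origin, grown in medium without LIF and with 15% bovine calf serum, first as hanging drops and then in suspension. The ceramide EBs received 30 µM C2 ceramide, a short-chain cell-permeable ceramide, from the start of day 3 and were collected on day 4, and the DMSO EBs of days 4 and 3 received the solvent and are labelled as controls in the public record. The comparisons address which antisense RNAs differ when ceramide is present while the primitive streak, the site where mesoderm forms, would appear, and whether each one moves with the protein-coding gene on its other strand. Each condition was sequenced once, which allows no test between them, and p-values are therefore absent.

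An antisense RNA gene is transcribed from the strand opposite another gene and overlaps it. Some such RNAs are known to act on the gene they overlap, through the chromatin of the shared locus, through the act of transcription, or by base pairing with the sense RNA. For many others no function is known, and many start close to the promoter of a developmental regulator and are made in the same cells as it. Genes named with "os" after a symbol carry the name of the gene on their opposite strand. The cDNA kit used here does not mark strand, so in exons that both genes share, reads of the antisense gene and of its partner cannot be told apart.

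The sequences that bear on the pairs described most fully come first. Evx1os and Vax2os start opposite a homeobox gene, and their promoters are shown as RefSeq gives them on GRCm38.p6, from 250 bases before to 50 after the start. Capitals mark CCAAT or its complement ATTGG, and GGGCGG. Evx1os lies at chr6:52314783-52315082 (minus strand), within the body of Evx1, and that stretch holds no exon of a protein-coding gene. For Evx1 the 250 bases before its own start are given, chr6:52313248-52313497 (plus strand), in which none of the 4 motifs searched was found. Vax2os lies at chr6:83712152-83712451 (minus strand).
Evx1os: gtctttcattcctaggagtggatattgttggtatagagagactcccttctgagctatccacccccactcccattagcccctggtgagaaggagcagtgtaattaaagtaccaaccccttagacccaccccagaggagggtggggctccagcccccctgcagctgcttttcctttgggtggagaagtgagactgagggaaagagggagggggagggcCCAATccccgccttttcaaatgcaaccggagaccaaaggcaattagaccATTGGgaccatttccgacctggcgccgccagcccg
Evx1: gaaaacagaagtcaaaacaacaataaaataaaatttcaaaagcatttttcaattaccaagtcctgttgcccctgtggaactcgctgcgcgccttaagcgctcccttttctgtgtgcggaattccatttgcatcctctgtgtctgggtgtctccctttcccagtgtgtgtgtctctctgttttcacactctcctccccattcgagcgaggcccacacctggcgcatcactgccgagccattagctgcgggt
Vax2os: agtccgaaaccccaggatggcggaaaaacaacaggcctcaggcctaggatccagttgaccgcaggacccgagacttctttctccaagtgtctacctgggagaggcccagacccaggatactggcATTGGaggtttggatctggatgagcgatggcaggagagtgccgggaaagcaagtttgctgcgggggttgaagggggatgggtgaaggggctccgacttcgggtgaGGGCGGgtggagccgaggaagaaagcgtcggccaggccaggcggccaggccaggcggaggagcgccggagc

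The 2 other sequences show why reads of Gm47428, the member with most counts, cannot be assigned to it alone. The 80 bases of Gm47428 are the reverse complement of the first 80 coding bases of Ftl1-ps1, the gene on its other strand, and the same bases stand without a difference in Ftl1, the ferritin light chain gene. Capitals mark the start codon ATG and its complement.
Gm47428: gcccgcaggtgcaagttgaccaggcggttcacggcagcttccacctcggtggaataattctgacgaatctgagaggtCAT
Ftl1-ps1: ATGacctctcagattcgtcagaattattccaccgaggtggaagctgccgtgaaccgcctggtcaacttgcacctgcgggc

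A promoter was found in the RefSeq table for 62 members and for 114 partners. The motifs were searched on both strands in the whole 300 bases. The TATA box TATAAA stood in 4.84% of the members' promoters and 6.14% of the partners', against 14.2% of all 27025 promoters compared. These were the first listed for each gene of the RefSeq table, whether expressed or not. For members and partners the promoter nearest the start in the deposited gene table was taken. The GC box GGGCGG stood in 56.5% of the members' and 58.8% of the partners', against 35.9% of all. The CCAAT box stood in 38.7% of the members' and 35.1% of the partners', against 37.9% of all. The E-box CACGTG stood in 12.9% of the members' and 9.65% of the partners', against 7.24% of all. The median number of CpG dinucleotides in the 300 bases was 20.5 for members and 21 for partners, against 7 for all. For the TATA box, the GC box and CpG, members and partners thus lay closer to each other than to all promoters. Of the members' promoters, 13 are head-to-head with the partner with start sites within 1000 bases, so the sequences compared can overlap. The closeness was not tested against promoters of expressed genes alone. A match to such letters is a description and not a binding site.

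The libraries held 35290094 counts (C2 ceramide day 4), 35078820 counts (DMSO day 4) and 33619197 counts (DMSO day 3). The streak transcription factor T had 9.47 TPM (transcripts per 1000000, a level corrected for transcript length) in C2 ceramide day 4, 110 TPM in DMSO day 4 and 3.39 TPM in DMSO day 3. Pou5f1, the pluripotency factor, had 911, 628 and 949 TPM in the same libraries. Of 32 streak and mesoderm genes tested, 0 were higher and 30 lower in C2 ceramide day 4 than in DMSO day 4. Over all 17655 genes tested, 9.97% were higher and 12.3% lower there. This list and the others used below were written with earlier results of these data known. Genes listed as trophoblast and fibroblast markers summed to 774, 1308 and 365 TPM, most of it the keratins Krt8 and Krt18. Gcm1 was listed at 0 in DMSO day 4 and Elf5 and S100a4 at 0 in DMSO day 3. Cdx2 stands on this list and on the streak and mesoderm list, so the 2 lists are not exclusive. Of 9 genes of this list that were tested, 2 were higher and 2 lower in C2 ceramide day 4 than in DMSO day 4. In DMSO day 4, 6 were higher and 2 lower than in DMSO day 3, against 12.8% and 9.45% of all genes tested. The part of these markers in the results below was not tested. In bulk RNA, fewer cells of a type and less RNA per cell cannot be told apart.

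The members were scarce RNAs. They summed to 25466 counts in C2 ceramide day 4, 22756 in DMSO day 4 and 22660 in DMSO day 3, or 0.0722%, 0.0649% and 0.0674% of each library. They held 83.6%, 80.2% and 81.7% of all counts on antisense genes, of which 1249 had any count. The median member had 1.69, 1.83 and 1.64 TPM, and 99, 105 and 92 members reached 1 TPM. The sum of 3 libraries was 162.59 counts for the median member, 40 members had at least 300 counts and 87 fewer than 200. At the rank limit, Gm48900, Gm12758 and Gm45447 had sums of 86.7, 86.12 and 86 counts just inside it, and Gm26770, 2610020C07Rik and Gm12868 had 85.9, 84.25 and 84.07 counts just outside. The counts chose the members, so their abundance is a description.

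The 10 members with most counts were mostly level across the libraries. Gm47428 (chr13:74404183-74406737, minus strand) had 1059 TPM in C2 ceramide day 4, 723 TPM in DMSO day 4 and 929 TPM in DMSO day 3, and held 47.8%, 35.7% and 44.8% of all members' counts. Its partner Ftl1-ps1, which the gene table types as protein-coding despite its pseudogene symbol, had 7270, 5189 and 6497 TPM. Ftl1 had 798, 544 and 710 TPM and the ferritin pseudogene Ftl2-ps 13989, 9934 and 12506 TPM. All 4 genes were highest in C2 ceramide day 4 and lowest in DMSO day 4, and none differed by more than 2-fold between any of the libraries. An alignment of 345 bases of the 661-base Gm47428 transcript to Ftl1 had 99.42% identity, on opposite strands, so its value cannot be told apart from ferritin RNA. Without Gm47428 the members made up 0.0377%, 0.0417% and 0.0372% of the libraries.

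The next members by counts included RNAs with names of their own. Snhg16, a host gene of small nucleolar RNAs, had 15.5 TPM in C2 ceramide day 4, 20.2 TPM in DMSO day 4 and 21.7 TPM in DMSO day 3, against 2.48, 2.12 and 1.81 TPM of St6galnac2, a sialyltransferase gene on its other strand. Gt(ROSA)26Sor, the RNA of the locus used for transgene insertion in mice, had 22.1, 21.1 and 17.6 TPM. Rab10os had 7.45, 8.87 and 8.90 TPM, 1110002L01Rik 6.44, 8.26 and 9.98 TPM, and Gm15545 26.0, 27.8 and 24.4 TPM. Gm10069 had 4.24, 4.66 and 4.78 TPM and B430218F22Rik 8.32, 9.28 and 10.4 TPM. None of these 7 passed 2-fold in any comparison. Trmt61b, typed as antisense under the symbol of a tRNA methyltransferase gene, had 14.4, 12.1 and 11.9 TPM and did not pass it either.

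Brip1os was the exception among the 10. It had 5.18 TPM in C2 ceramide day 4, 5.25 TPM in DMSO day 4 and 2.58 TPM in DMSO day 3 (599, 607 and 292 counts), so that both day 4 libraries were high. DMSO day 4 was 2.04 times DMSO day 3 (95% counting interval 1.77 to 2.35), and C2 ceramide day 4 was 2.01 times DMSO day 3 (1.75 to 2.32), both just past 2-fold, and under ratios of counts per library total it was not called. Ints2, an Integrator subunit gene inside the Brip1os span on the other strand, had 32.8, 36.6 and 36.1 TPM. Here and below the interval is the exact interval of the ratio of the 2 counts, shifted to the TPM ratio, and it covers counting error only. Where TPM and counts change unequally, the interval need not hold the ratio of the counts.

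The gene table gave 144 of the 150 members a protein-coding partner on the other strand, all of them different genes, and 6 members had none. In 56 pairs the start of each gene lay inside the other (head-to-head), in 39 the member lay inside its partner, in 39 the ends overlapped (tail-to-tail) and in 10 the partner lay inside the member. The start sites were within 1000 bases of each other in 32 pairs. In the GENCODE M21 exon models, 129 pairs shared exon bases and 15 did not. The median share of a member's exon bases inside exons of its partner was 20.7%, the share reached 50% in 30 pairs, and all of it was shared in 8. Of the members, 132 had a stretch of at least 50 bases with 97% identity or more to a transcript of another gene, partner included, and in 21 such stretches covered at least 90% of the transcript. The members spanned 20 chromosomes, with 15 on chromosome 3, and had a median span of 4432 bases.

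Most members had a lower TPM than their partners. The median member stood at 0.0777 of its partner's TPM in C2 ceramide day 4 (139 pairs with a partner above 0), 0.0812 in DMSO day 4 (137 pairs) and 0.0666 in DMSO day 3 (139 pairs). Over the 13 pairs with no shared exon bases and a partner above 0, the median was 0.484 in C2 ceramide day 4, 1.45 in DMSO day 4 and 0.732 in DMSO day 3. The median partner had 21.5, 25.6 and 19.9 TPM. A member exceeded its partner in 22, 24 and 23 pairs, of which 17 did so in all 3 libraries. At the other end, 11 members stayed under 0.01 of the partner in all 3 libraries, such as Gm45774 opposite the metallothionein gene Mt2 and Gm19553 opposite Pou5f1.

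The 10 members with the largest level relative to the partner were chosen by that ratio, so low partner levels among them follow from the choice. Gm11837 had 2.31, 1.46 and 2.85 TPM in C2 ceramide day 4, DMSO day 4 and DMSO day 3, against 0.097, 0 and 0.009 TPM of Necab1, a neuronal calcium-binding protein gene. Gm16233 had 3.05, 1.41 and 4.15 TPM, against 0.012, 0.013 and 0.078 TPM of Clca4a, a gene of the calcium-activated chloride channel regulator family. A930015D03Rik had 9.94, 7.92 and 9.42 TPM, against 0.055, 0.05 and 0.057 TPM of the nonclassical MHC gene H2-T24, with no shared exon bases. It overlaps 3 protein-coding genes, and 90.4% of its 1111-base transcript matches other genes on the opposite strand, led by H2-T22, which had 3.35, 4.05 and 3.46 TPM, so its level is not particular to the locus of H2-T24. Trmt61b stood above Spdya, a cell cycle regulator gene of germ cells, which had 0.245, 0.104 and 0.203 TPM. Gm14236, Tmem147os, Gm10762, Gm16008, Rab26os and 6330418K02Rik completed the 10. Tmem147os had 3.64, 4.97 and 3.54 TPM opposite Gapdhs, a sperm glyceraldehyde phosphate dehydrogenase gene at 0, 0.083 and 0 TPM. Rab26os had 30.8, 28.9 and 28.8 TPM opposite Rab26, a secretory vesicle GTPase gene at 2.58, 1.78 and 3.08 TPM, with which it shared no exon bases.

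**Figure D1:**
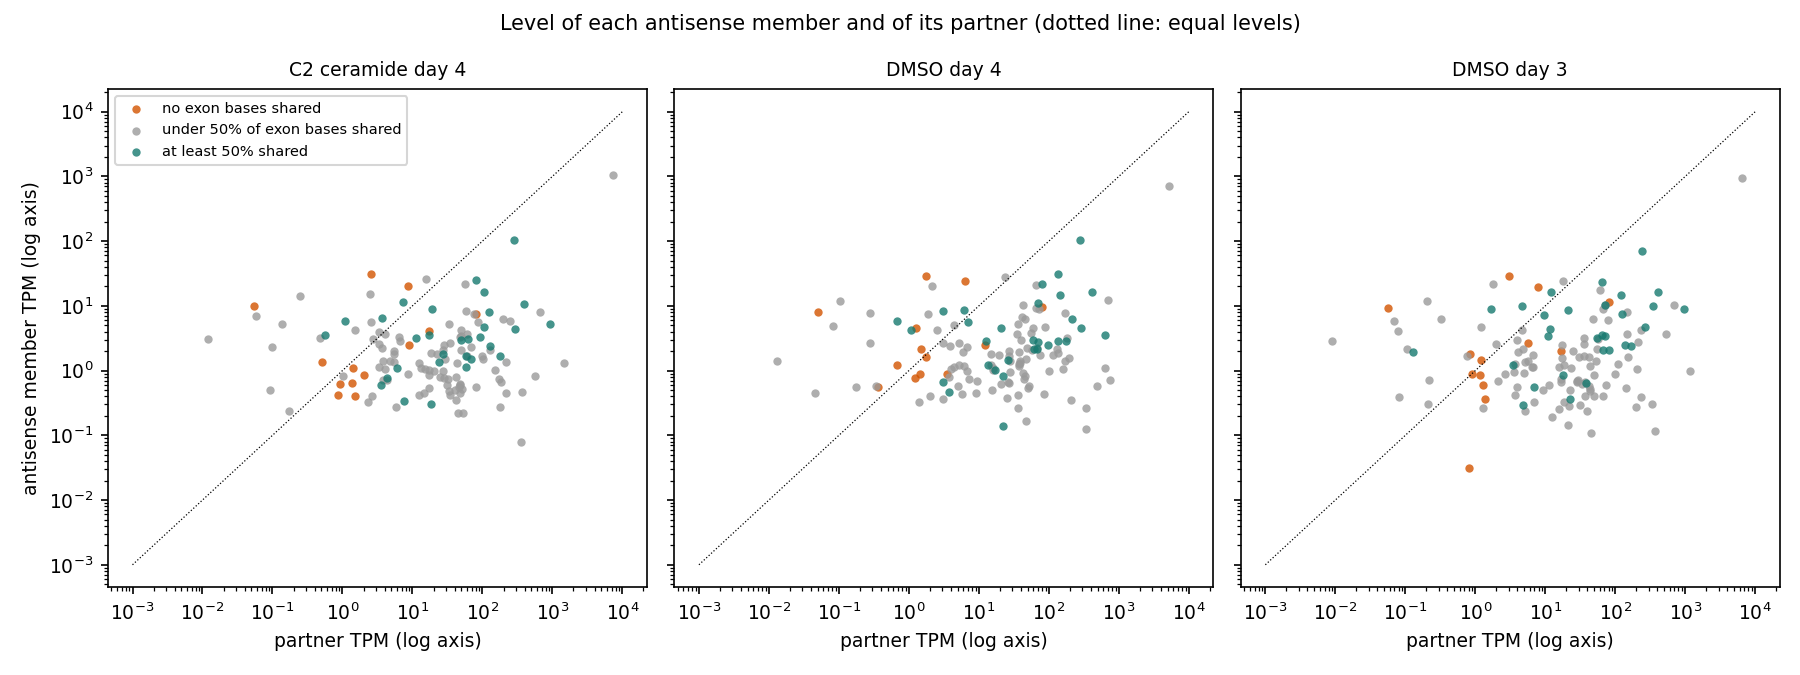
TPM of each antisense member against TPM of its protein-coding partner (log axes), 1 panel per library and 1 point per pair with a partner above 0, coloured by the share of the member's exon bases inside partner exons, with a dotted line at equal levels. Most points lie under the line, and 22, 24 and 23 members lie above it in C2 ceramide day 4, DMSO day 4 and DMSO day 3.

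Ceramide against DMSO on day 4 asked which antisense RNAs differed at the same age. A gene was called higher above a TPM ratio of 2 and lower below 0.5, over genes with at least 10 counts in 1 or more libraries (17655 genes, all 150 members among them). With ceramide, 11 members were higher (7.33%) and 20 were lower (13.3%) than in DMSO day 4. Of all genes tested, 9.97% were higher and 12.3% were lower. Of the 276 other antisense genes tested, which have fewer counts, 22.5% were higher and 30.8% lower. The interval of all 31 called members excluded 1. Members were chosen by counts, with at least 36.3 in their highest library, which narrows their intervals. This outcome was therefore largely fixed by the choice. Under that stricter rule 8.93% of all genes were higher and 10.7% lower, genes with as few as 10 counts included. The median log2 ratio was -0.08 for members and -0.03 for all genes. The members' shares were near the background in this comparison.

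Evx1os showed the largest difference of any member. It had 28 counts in C2 ceramide day 4, 762 in DMSO day 4 and 25 in DMSO day 3, or 0.325, 10.1 and 0.3 TPM. DMSO day 4 alone was high. It was 31.2-fold lower in C2 ceramide day 4 than in DMSO day 4 (21.4 to 47.3), a log2 ratio of -4.96. Its partner Evx1, an even-skipped homeobox transcription factor gene of the primitive streak, had 2.32, 42.5 and 0.208 TPM and was 18.3-fold lower (15.7 to 21.3). Evx1os spans chr6:52308389-52314832 and starts 1334 bases inside Evx1, head-to-head, and only 73 of its exon bases (2.42%) lie in exons of Evx1. Of its 2 transcripts with counts, the 2916-base one held 28, 757.89 and 25 of them.

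Lef1os1 moved with Lef1, the transcription factor that pairs with beta-catenin in Wnt signalling. Lef1os1 had 116 counts in C2 ceramide day 4, 261 in DMSO day 4 and 95.8 in DMSO day 3 (1.31, 2.98 and 1.12 TPM), and was 2.27-fold lower in C2 ceramide day 4 than in DMSO day 4 (1.82 to 2.85). Lef1 had 12.3, 40.0 and 15.9 TPM and was 3.26-fold lower. The pair is head-to-head, and 39.4% of Lef1os1 exon bases lie in Lef1 exons.

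Vax2os went the other way. It had 162 counts in C2 ceramide day 4, 61 in DMSO day 4 and 99 in DMSO day 3 (4.14, 1.60 and 2.66 TPM), and was 2.60-fold higher in C2 ceramide day 4 than in DMSO day 4 (1.92 to 3.55). Vax2, whose homeodomain protein patterns the ventral retina, had 17.2, 1.75 and 5.65 TPM and was 9.81-fold higher. The start sites lie 937 bases apart, head-to-head, and no exon bases are shared in the models used. Of the 22 neural genes tested, Vax2 included, 11 were higher and 5 lower in C2 ceramide day 4 than in DMSO day 4. Over all genes tested these shares were 9.97% and 12.3%, and the neural list was written with earlier results of these data known.

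Gm47547 and Gm20463 fell in C2 ceramide day 4 while their partners did not pass 2-fold. Gm47547 had 44.9 counts in C2 ceramide day 4, 322 in DMSO day 4 and 62.3 in DMSO day 3 (0.62, 4.52 and 0.89 TPM), 7.29-fold lower with ceramide than with DMSO on day 4 (5.32 to 10.2). Dydc2, inside which it lies with no shared exon bases, had 0.916, 1.25 and 0.894 TPM. Gm47547 has close copies elsewhere, and over 2699 bases it is 98.37% identical to Gm50321 on chromosome 19, which had 0.777, 1.90 and 0.432 TPM. The first 100-base window of that alignment with no more than 5 differences is shown, with the differing bases in capitals, to show how close the copies are.
Gm47547: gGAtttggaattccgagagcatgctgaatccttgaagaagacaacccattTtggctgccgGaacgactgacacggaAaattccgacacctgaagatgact
Gm50321: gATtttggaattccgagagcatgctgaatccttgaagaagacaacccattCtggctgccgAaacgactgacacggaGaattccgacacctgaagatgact
Gm20463 had 15.7 counts in C2 ceramide day 4, 101 in DMSO day 4 and 45.8 in DMSO day 3 (4.70, 30.9 and 14.5 TPM), 6.57-fold lower with ceramide than with DMSO on day 4 (3.86 to 11.9). All of its exon bases lie in exons of Rnf5, a ubiquitin ligase gene of the endoplasmic reticulum that had 105, 133 and 121 TPM. Its reads therefore fall where Rnf5 reads fall, and its counts are those the authors' software left to it.

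Of the other members with at least 100 counts in the higher library, Gm16233 passed 2-fold, with 118 counts in C2 ceramide day 4 and 54.0 in DMSO day 4, a ratio of 2.16 (1.55 to 3.04). 4933431E20Rik had under 100 counts in both day 4 libraries, 46 in C2 ceramide day 4 and 92.0 in DMSO day 4. It was 2.99-fold lower in TPM (2.07 to 4.35), more than its counts alone give. Members that came near without passing were Gm44170, inside the translocon gene Sec61a1, with 66.4 counts in C2 ceramide day 4 against 120 in DMSO day 4, and 9330020H09Rik, inside the cyclin gene Ccnt1, with 59.0 counts in C2 ceramide day 4 against 101 in DMSO day 4. 4930513N10Rik, head-to-head with Cnot1, the scaffold of a deadenylase complex, had 60 counts with ceramide against 102 with DMSO on day 4. Gm29542, inside Cbll1, had 103 with ceramide against 51.1 with DMSO, and 3010003L21Rik, opposite the Sin3 complex gene Sinhcaf, had 263 with ceramide against 144 with DMSO. Gm45774, opposite Mt2, had 100 counts with ceramide against 55.1 with DMSO, while Mt2 itself had 1472 TPM in C2 ceramide day 4 and 737 TPM in DMSO day 4.

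Among members with fewer counts, Gm45507 and Gm48342 lay inside genes whose products act in hypoxia and in cholesterol synthesis. They were chosen after their values were seen. Gm45507, inside Bnip3, a mitophagy receptor gene induced by hypoxia, had 8.05 counts in C2 ceramide day 4, 43.2 in DMSO day 4 and 67.5 in DMSO day 3, and was 5.50-fold lower in C2 ceramide day 4 than in DMSO day 4 (2.56 to 13.5). Bnip3 had 58.5, 215 and 347 TPM, 3.68-fold lower, and 97.1% of the exon bases of Gm45507 lie in Bnip3 exons. Gm48342, inside Hmgcs1, an early enzyme gene of cholesterol synthesis, had 10.3, 45.7 and 74.1 counts and was 4.52-fold lower (2.25 to 10.0), while Hmgcs1 had 52.9, 100 and 151 TPM. In both members C2 ceramide day 4 was the low library and DMSO day 3 the high one.

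**Figure D2:**
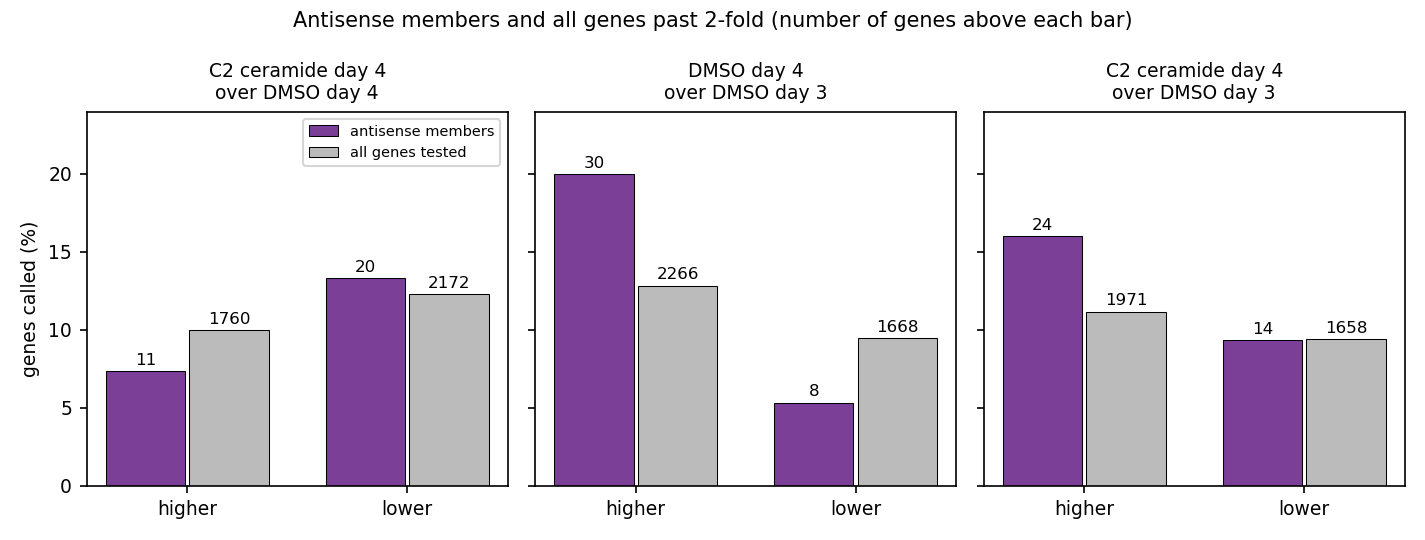
Percent of genes called higher or lower by 2-fold in each of the 3 comparisons (bars from 0), for the 150 antisense members and for all 17655 genes tested, with the number of genes above each bar. In C2 ceramide day 4 over DMSO day 4 the members stand at 7.33% higher and 13.3% lower, against 9.97% and 12.3% of all genes, and in DMSO day 4 over DMSO day 3 at 20% higher, against 12.8%.

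DMSO day 4 against DMSO day 3 asked which antisense RNAs changed over the day in which streak genes appear. In DMSO day 4, 30 members were higher (20%) and 8 were lower (5.33%) than in DMSO day 3. Of all genes tested, 12.8% were higher and 9.45% were lower. Of the 276 other antisense genes tested, which have fewer counts, 27.9% were higher and 23.6% lower, so a high share is not particular to the members. The intervals of all 38 called members excluded 1, which the choice of members by counts again largely fixed. Under that rule 11.4% of all genes were higher and 7.87% lower, genes with few counts included. The median log2 ratio was 0.20 for members and 0.05 for all genes. Under ratios of counts per library total the members' median was 0.08, and 29 of the 38 calls were kept in their direction. The 9 that were not were all calls of higher members, so that 21 members were higher (14%) and 11 lower (7.33%) under that scaling, against 12.2% and 9.40% of all genes. Under TMM scaling 20 were higher (13.3%) and 14 lower (9.33%), against 11.8% and 9.78% of all genes. Of the 134 partners tested, 9 were higher and 6 were lower.

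Evx1os led again, 33.8-fold higher in DMSO day 4 than in DMSO day 3 (22.7 to 52.6), while Evx1 was 204-fold higher (126 to 358). Gm47547 was 5.08-fold higher (3.86 to 6.78), Lef1os1 2.66-fold (2.10 to 3.40) and Gm20463 2.13-fold (1.49 to 3.09). E130307A14Rik, tail-to-tail with Traf3ip2, an adaptor gene of interleukin signalling, had 94 counts in C2 ceramide day 4, 136 in DMSO day 4 and 10 in DMSO day 3, so both day 4 libraries were high. It was 6.07-fold higher in DMSO day 4 than in DMSO day 3 (3.20 to 13.0), and Traf3ip2 had 3.34, 2.49 and 2.11 TPM. Gm10138, opposite Ivns1abp, was 2.46-fold higher (1.79 to 3.42), with 139 counts in DMSO day 4 against 55.5 in DMSO day 3. 9330020H09Rik (2.4-fold), 4930513N10Rik (2.03-fold) and Gm44170 (2.02-fold) were also higher, and their partners Ccnt1, Cnot1 and Sec61a1 did not pass 2-fold. The call of Gm44170 was lost under ratios of counts per library total.

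BC037039 and Gm10638, chosen after their values were seen, were nearly absent on day 3. BC037039 had 39.4 counts in C2 ceramide day 4, 55.6 in DMSO day 4 and 1.89 in DMSO day 3. It lies within the protocadherin gamma cluster on chromosome 18, where it overlaps 22 protein-coding genes that share their last exons, so its assigned partner Pcdhga2 is 1 of many. The ratio of DMSO day 4 over DMSO day 3 was 29.1, with an interval of 7.68 to 246. Gm10638, head-to-head with the ubiquitin ligase gene Siah1a, had 64, 31 and 2 counts, a ratio of 13.7 in TPM (3.48 to 118) for DMSO day 4 over DMSO day 3. In TPM, unlike in counts, Gm10638 was lower in C2 ceramide day 4 than in DMSO day 4, by 1.29-fold (0.813 to 2.01). For both members, the day 3 level rests on 2 counts or fewer.

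The 8 members lower in DMSO day 4 than in DMSO day 3 included 1 with at least 100 counts in the higher library. This was Gm16233, with 54.0 counts in DMSO day 4 against 155 in DMSO day 3, 2.93-fold lower (2.14 to 4.07). A630072M18Rik, inside Rsbn1l with 5142 of its exon bases in Rsbn1l exons, had 101 counts in DMSO day 4 and 177 in DMSO day 3, and 4933431E20Rik had 92.0 in DMSO day 4 against 157 in DMSO day 3. Neither passed 2-fold there. Gm19553 fell as well, with 22.6 counts in DMSO day 4 and 56.8 in DMSO day 3, 2.59-fold lower (1.57 to 4.40), and it had 35.4 counts in C2 ceramide day 4. Its partner is Pou5f1, in whose exons 64.2% of its exon bases lie, and which did not pass 2-fold, at 628 TPM in DMSO day 4 against 949 TPM in DMSO day 3.

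**Figure D3:**
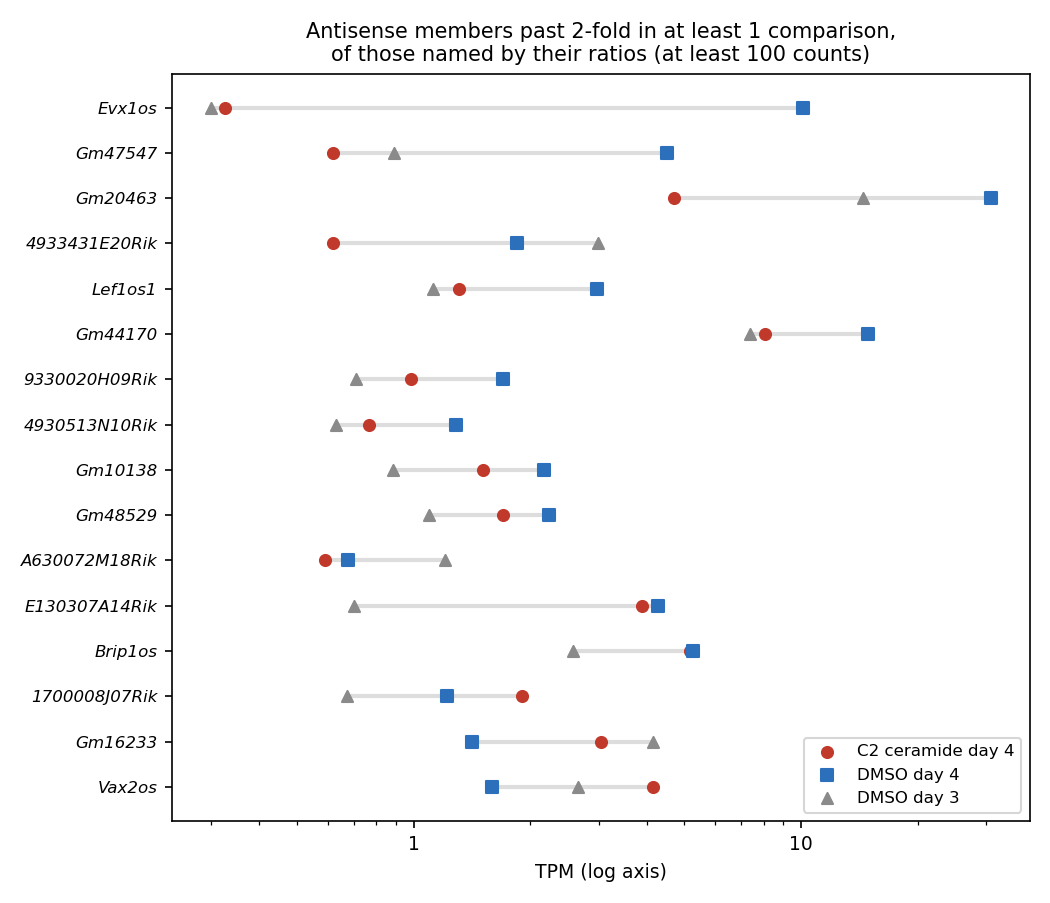
TPM (log axis) of members past 2-fold in at least 1 comparison, among those named by their ratios with at least 100 counts, in C2 ceramide day 4 (circles), DMSO day 4 (squares) and DMSO day 3 (triangles), 1 library each. Evx1os spans 0.3 to 10.1 TPM with DMSO day 4 alone high, whereas both day 4 libraries are high in Brip1os and E130307A14Rik, and DMSO day 4 is lowest in Vax2os and Gm16233.

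C2 ceramide day 4 against DMSO day 3 combined the treatment and the extra day. In C2 ceramide day 4, 24 members were higher (16%) and 14 were lower (9.33%) than in DMSO day 3. Of all genes tested, 11.2% were higher and 9.39% were lower. Of the 276 other antisense genes tested, which have fewer counts, 30.1% were higher and 26.1% lower. The intervals of all 38 excluded 1, which the choice of members by counts again largely fixed. Under that rule 9.72% of all genes were higher and 7.78% lower, genes with few counts included. The median log2 ratio was 0.11 for members and 0.03 for all genes. Under ratios of counts per library total, 12% of members were higher and 8.67% lower, against 10.5% and 9.27% of all genes. Under TMM scaling these shares were 12% and 8%, against 10.4% and 9.37%. Evx1os, at 28 counts in C2 ceramide day 4 against 25 in DMSO day 3, did not pass 2-fold, while Evx1 was 11.2-fold higher, at 2.32 TPM in C2 ceramide day 4 against 0.208 TPM in DMSO day 3. Lef1os1 had 116 counts with ceramide against 95.8 in DMSO day 3. The members with at least 100 counts that passed it upwards were Brip1os and 1700008J07Rik, opposite Srcap, the ATPase gene of a chromatin remodelling complex. 1700008J07Rik had 112 counts in C2 ceramide day 4, 71.6 in DMSO day 4 and 38.6 in DMSO day 3, a 2.83-fold higher level in C2 ceramide day 4 than in DMSO day 3 (1.95 to 4.19). With fewer counts, E130307A14Rik was 5.54-fold higher (2.88 to 11.9).

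Those with at least 100 counts that passed it downwards were 4933431E20Rik and A630072M18Rik. 4933431E20Rik was lowest, with 46 counts in C2 ceramide day 4 against 157 in DMSO day 3. It was 4.83-fold lower in TPM (3.46 to 6.86), again more than its counts alone give. Its partner Eps8l3 was listed at 0 TPM in all 3 libraries. A630072M18Rik was 2.04-fold lower (1.57 to 2.66). Gm45507 was 8.83-fold lower (4.24 to 21.3) and Bnip3 5.93-fold lower, and Gm48342 7.48-fold lower (3.85 to 16.3) and Hmgcs1 2.85-fold lower. Gm20463 was 3.08-fold lower (1.71 to 5.83).

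**Figure D4:**
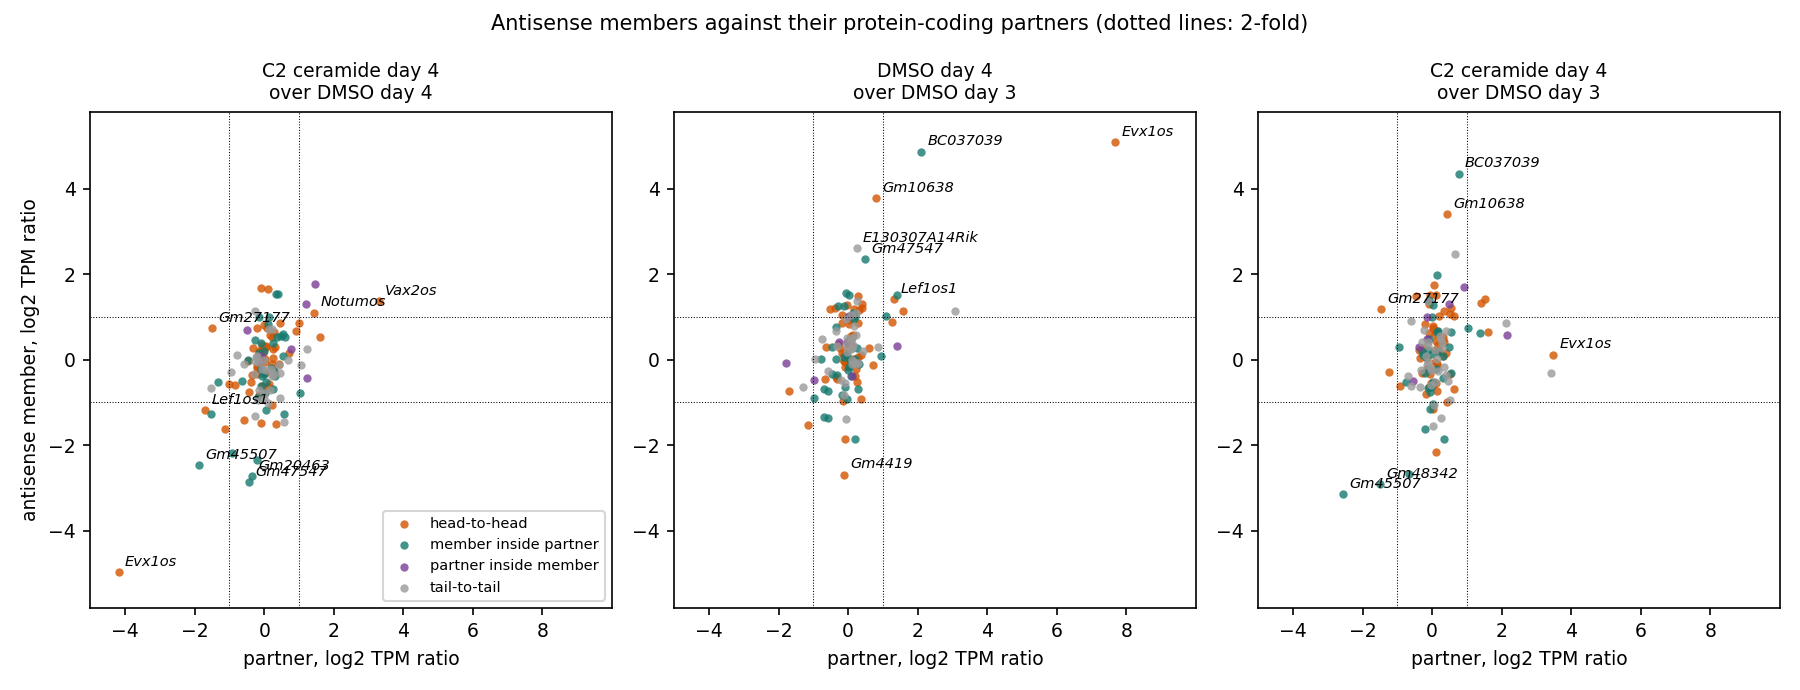
Log2 TPM ratio of each antisense member against that of its partner in the 3 comparisons, 1 point per pair, coloured by arrangement, with dotted lines at 2-fold and outlying members named. Panels hold 132, 132 and 134 pairs, since 2 pairs with a partner at 0 TPM in DMSO day 4 (Gm10069 and Gm11837) are not drawn in the first 2, and Evx1os is the lowest member of the first at -4.96 and the highest of the second at 5.08, followed there by BC037039 at 4.86.

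Pairs were set against each other where the partner passed the count minimum, which 134 of 144 did. Between ceramide and DMSO on day 4, member and partner were called in the same direction in 9 pairs and in opposite directions in 0, the member alone was called in 18, the partner alone in 11 and neither in 96. In DMSO day 4 over DMSO day 3 the same direction was found in 8 pairs, opposite directions in 0, the member alone in 29, the partner alone in 7 and neither in 90. In C2 ceramide day 4 over DMSO day 3 these counts were 4, 1, 30, 8 and 91. Spearman's correlation over the 134 pairs was 0.35, 0.42 and 0.26 in the 3 comparisons. These are descriptions across pairs that share the same 2 libraries and, in most pairs, exon bases.

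The correlation was also computed by the arrangement of the pair. Between ceramide and DMSO on day 4, the correlation was 0.48 over 54 head-to-head pairs, 0.47 over 38 pairs with the member inside its partner and 0.02 over 35 tail-to-tail pairs. Over 31 pairs whose start sites lay within 1000 bases it was 0.70 in that comparison, 0.35 in DMSO day 4 over DMSO day 3 and 0.36 in C2 ceramide day 4 over DMSO day 3. In DMSO day 4 over DMSO day 3 the correlation was 0.39, 0.44 and 0.43 for the same 3 arrangements, and in C2 ceramide day 4 over DMSO day 3 0.17, 0.43 and 0.04. The order of the arrangements thus differed between comparisons. Over the 12 pairs with no shared exon bases and a tested partner, 1, 1 and 0 pairs were called in the same direction, the pairs being Vax2os with Vax2 and BC037039 with Pcdhga2. Both members share sequence with genes other than the assigned partner. Of the BC037039 transcript, 70.7% matches Pcdhgc3 on the opposite strand, and of the Vax2os transcript 31.6% matches other genes.

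The 9 pairs called together in C2 ceramide day 4 over DMSO day 4 were read out by partner role, and those not described above were chosen after their values were seen. Both genes were lower in Evx1os with Evx1, Lef1os1 with Lef1, Gm45507 with Bnip3, Gm17509 with Emb and 9330121J05Rik with Arhgef26. Gm17509 lies inside Emb, the gene of the cell surface protein embigin, and had 28.6 counts in C2 ceramide day 4, 68.5 in DMSO day 4 and 23.6 in DMSO day 3, while Emb had 215, 626 and 234 TPM. With ceramide, Gm17509 was 2.42-fold lower than in DMSO day 4 (1.55 to 3.88) and Emb 2.92-fold lower. Of the longest Gm17509 transcript, 28.9% matches Emb on the opposite strand, and Gm17509 stayed under 0.01 of the TPM of Emb in all 3 libraries. Its counts there cannot be told apart from Emb reads. 9330121J05Rik had 26.7, 81.6 and 43.3 counts, and 72.8% of its exon bases lie in exons of Arhgef26, a guanine nucleotide exchange factor gene with 7.63, 16.8 and 7.0 TPM.

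Both genes were higher in Vax2os with Vax2, Notumos with Notum, Gm20628 with H3c13 and Gm20632 with H2ac19. Notumos, head-to-head with Notum, the gene of a secreted enzyme that inactivates Wnt proteins, had 49.4 counts in C2 ceramide day 4, 23.0 in DMSO day 4 and 18.1 in DMSO day 3. It was 2.14-fold higher in C2 ceramide day 4 than in DMSO day 4 (1.28 to 3.68) and 2.66-fold higher than in DMSO day 3 (1.52 to 4.85). Notum had 3.77, 1.39 and 1.31 TPM, 2.71-fold and 2.89-fold higher. Of the longest Notumos transcript, 25.2% matches Notum on the opposite strand. Lef1 and Notum both belong to Wnt signalling, and the 2 pairs moved in opposite directions with ceramide on day 4.

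Gm20628 and Gm20632 contain histone genes of the cluster on chromosome 3. Gm20628 had 94.7 counts in C2 ceramide day 4, 38.1 in DMSO day 4 and 28.1 in DMSO day 3, and H3c13, the histone gene inside it, had 13.3, 5.82 and 6.99 TPM. Gm20632 had 84.7, 24.6 and 33.2 counts, and H2ac19 had 5.54, 2.0 and 3.97 TPM. In C2 ceramide day 4 over DMSO day 4 the ratios were 2.46 for Gm20628 (1.67 to 3.69) and 3.43 for Gm20632 (2.17 to 5.59). Gm20632 matches H2ac18 over 586 bases at 99.829% identity as well as H2ac19 over 528, so the histone reads are not particular to 1 gene.

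The 8 pairs called together in DMSO day 4 over DMSO day 3 comprised 7 with both genes higher and 1 with both lower. Besides Evx1os, Lef1os1, Gm17509 and BC037039, the higher ones were 6330403L08Rik with Pdgfa, Gm48529 with Tagln and 6330418K02Rik with Gal3st4. 6330403L08Rik had 77.1 counts in C2 ceramide day 4, 67 in DMSO day 4 and 30 in DMSO day 3, and Pdgfa, a growth factor gene of the platelet-derived growth factor family, had 32.8, 36.5 and 12.3 TPM, so both genes were high in both day 4 libraries. Their ratios of DMSO day 4 over DMSO day 3 were 2.19 (1.40 to 3.49) and 2.97 (2.65 to 3.33). Gm48529 had 110, 55.0 and 26.9 counts, and Tagln, an actin-binding protein gene of smooth muscle, had 59.9, 48.4 and 23.0 TPM. In TPM, unlike in counts, Gm48529 was 1.31-fold lower in C2 ceramide day 4 than in DMSO day 4 (0.931 to 1.83). Tagln was 1.24-fold higher there (1.16 to 1.31). Of the longest Gm48529 transcript, 53.5% matches Tagln on the opposite strand. The calls of Gm48529 and 6330418K02Rik were lost under ratios of counts per library total. The lower pair was Pcsk2os1 with Pcsk2, a prohormone convertase gene, at 20 counts in DMSO day 4 against 50 in DMSO day 3 for Pcsk2os1, and 0.338 TPM in DMSO day 4 against 0.752 TPM in DMSO day 3 for Pcsk2.

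The 1 pair called in opposite directions was Gm27177 with Loxl2, a lysyl oxidase gene of the extracellular matrix, in C2 ceramide day 4 over DMSO day 3. Gm27177 had 62.6 counts in C2 ceramide day 4, 36.2 in DMSO day 4 and 26.7 in DMSO day 3, 2.26-fold higher in C2 ceramide day 4 than in DMSO day 3 (1.42 to 3.69). Loxl2 had 3.36, 9.44 and 9.24 TPM and was 2.75-fold lower (2.43 to 3.11). The whole 2946-base transcript of Gm27177 is identical to sequence of Gm16867 on the same strand, and 1133 bases are identical to Entpd4 and Entpd4b on the other strand. Entpd4 had 25.5, 14.1 and 13.6 TPM. The counts of Gm27177 can therefore not be told apart from those of genes other than Loxl2.

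**Figure D5:**
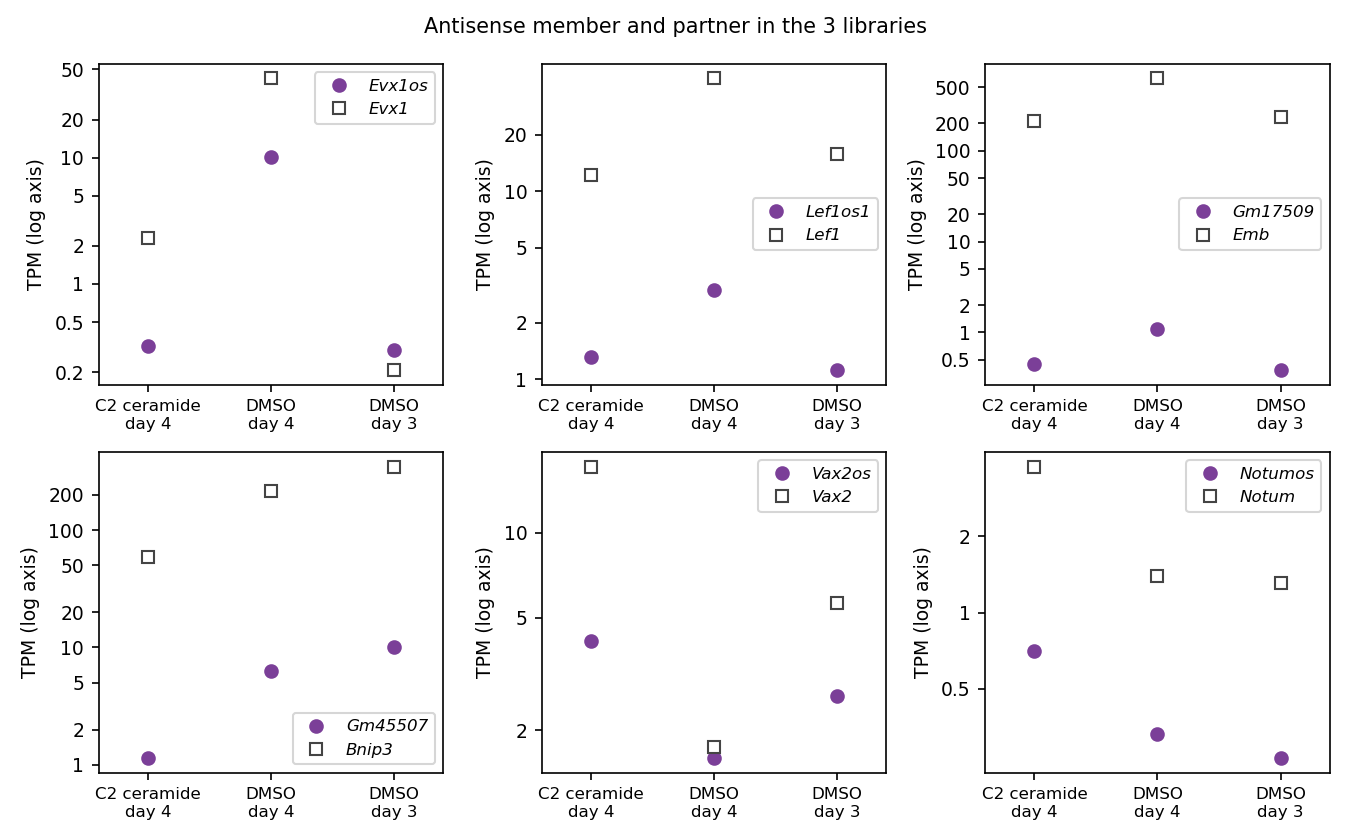
TPM (log axes) of 6 antisense members (filled circles) and their partners (open squares) in C2 ceramide day 4, DMSO day 4 and DMSO day 3, 1 library each. Evx1os, Lef1os1 and Gm17509 peak in DMSO day 4 with their partners, Gm45507 and Bnip3 are lowest in C2 ceramide day 4, and Vax2os and Notumos are highest there with theirs.

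Across the 3 libraries, 48 members had their highest TPM in C2 ceramide day 4, 57 in DMSO day 4 and 45 in DMSO day 3, and 69 had their lowest in DMSO day 3. The ratio of the highest to the lowest library was 1.88 for the median member and under 1.5 for 49 members. At 2-fold, 68 members (45.3%) were called in at least 1 comparison and 82 in none, against 33.8% of all genes tested called in at least 1. These shares rest on TPM ratios and were not recomputed under the count scalings. Of the lists of developmental genes, each of 3 held the partner of 1 member, Evx1 among streak and mesoderm genes, Pou5f1 among pluripotency genes and Vax2 among neural genes, and no partner was on the lists of endoderm, Hox or stress genes.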

How the data were processed

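The study's cDNA kit was SMART-Seq v4 and its library kit Nextera XT, and the authors' quantification was by DRAGEN 3.6.3 on GRCm38 with the M25 annotation of GENCODE. They deposited TPM and estimated counts per gene and per transcript, with 1 library per condition. The deposited expected counts are not whole numbers and were rounded for intervals and scaling. The strand setting of the counting is not given in the sources used here. All deposited sample columns were used, and reads were not.

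Ratios are TPM ratios with a TPM of 0 set to 0.001, called above 2 or below 0.5 after the fold thresholds of the study, over genes with at least 10 counts in 1 or more libraries, a minimum set here. The 95% interval, exact and conditional on the total (Clopper-Pearson), comes from the 2 rounded counts and was shifted to the TPM ratio. It covers counting error only, and it can be too narrow for that, since PCR copies of 1 molecule are counted separately. The division of reads between overlapping genes is not covered. The partner of a member is the protein-coding gene on the other strand with the longest overlap of gene bodies, by the coordinates of the gene table. Exons and transcripts came from GENCODE M21, an older release on the same build, so models added later are missing from the exon shares. Shared sequence was found with BLAST+ 2.17.0, and promoters are RefSeq's on GRCm38.p6.

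Genes named are the 10 members with most counts, the 3 on either side of the rank limit, in each comparison the 10 largest and the 10 smallest ratios among members with at least 100 counts in the higher library, pairs called in opposite directions, the 10 members with the largest level relative to the partner, members whose partner is on a gene list, and the partners of all of these. Other genes are said to have been chosen after their values were seen. The values of 1 further pair are not reported here. The members, the gene lists and the rule were chosen with earlier results of these data known. Lists covered streak and mesoderm, endoderm, pluripotency, neural, Hox, trophoblast and fibroblast, and stress genes.

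Python 3.11.15, NumPy 2.4.6, pandas 2.3.3 and SciPy 1.17.1 were used, with Matplotlib 3.10.9 for figures. Alternatives used TMM factors of edgeR 4.0.16 and size factors of DESeq2 1.42.0 in R 4.3.3, for scaling only. The ratio and interval code was tested on simulated data.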

Additional observations from a re-analysis of the deposited data

How the results depend on the processing

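Each condition has 1 library, so no spread between replicates is known, and most called members have under 100 counts in the higher library. No paired analysis was possible because each condition has 1 library. The library kit does not mark strand and most members share exon bases with the partner, so levels depend on how the authors' software divided reads.

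Of 165 counts and medians recomputed, 105 equalled the value given or stayed within 1.5 times of it, and 60 moved. Values follow in the order C2 ceramide day 4 over DMSO day 4, DMSO day 4 over DMSO day 3 and C2 ceramide day 4 over DMSO day 3. With 1 TPM added to every value, 2, 6 and 2 members were higher and 8, 5 and 6 lower, pairs called together were 2, 1 and 2, and the opposite pair was gone (0). Of all genes, 2.51%, 3.79% and 2.31% were then higher and 3.49%, 1.59% and 1.46% lower, against 1.33%, 4% and 1.33% of members higher and 5.33%, 3.33% and 4% lower. At a 4-fold threshold, 0, 5 and 3 members were higher and 6, 1 and 5 lower, pairs together were 1, 2 and 1, and opposite pairs 0 in the last comparison. At 1.5-fold, 27 members were higher in the first and 41 in the last comparison, 37, 24 and 29 were lower, pairs together were 15, 18 and 15, and opposite pairs 2 in the first and 3 in the last. Among the 51 members with at least 100 counts in a library, 2, 11 and 3 were higher and 5, 1 and 3 lower, and of 38 pairs 3, 3 and 0 moved together and 0 in opposite directions in the last. Among the 100 antisense genes with most counts, 4 were higher in the first and 12 in the last comparison, and 1 in the second and 8 in the last were lower. Among the 200 with most counts, 34, 14 and 24 were lower. For DMSO day 4 over DMSO day 3 alone, 17 were lower among the 150 genes with the highest sum of TPM, 14 under TMM scaling, and 5 pairs moved together with 0.1 TPM added. Over pairs with no shared exon bases, 1, 1 and 0 moved together and 0 in opposite directions in the last comparison, and the median level relative to the partner was 0.484 in C2 ceramide day 4, 1.45 in DMSO day 4 and 0.732 in DMSO day 3 over 13 pairs.

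Under counts per library total, TMM scaling and DESeq2 scaling, 1 pair, Gm13205 with Casz1, was called in opposite directions in C2 ceramide day 4 over DMSO day 4. Counts per library total kept the direction and the call of 27 of 31, 29 of 38 and 29 of 38 called members. Of 1470 ratios of 98 members recomputed, 15 whose TPM ratio was past 2-fold reversed in sign. All were under these 3 count scalings and in 4 members with 2 or more transcripts of unequal length, whose TPM sum and counts differ. Sign changes of ratios within 2-fold are not among the 15. Gm10638 and Gm48529 in C2 ceramide day 4 over DMSO day 4 are such cases. D930007J09Rik went to -1.41, -1.44 and -1.43 on the log2 scale under counts per library total, TMM and DESeq2 in DMSO day 4 over DMSO day 3, and to -0.23, -0.25 and -0.24 in C2 ceramide day 4 over DMSO day 3. Its 393-base transcript had 1.34 TPM in C2 ceramide day 4, 1.31 TPM in DMSO day 4 and 0 in DMSO day 3, and its 2459-base transcript 0.482, 0.166 and 0.652 TPM. Panct2 went to -0.28, -0.32 and -0.31 in DMSO day 4 over DMSO day 3. In C2 ceramide day 4 over DMSO day 3, 2510046G10Rik went to -0.27, -0.29 and -0.29, and 4732440D04Rik to -0.15, -0.16 and -0.15.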

Other observations

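The antisense RNAs left out by name were Kcnq1ot1, which silences imprinted genes near Kcnq1, Airn, which does so near Igf2r, and Gnasas1 (Nespas) of the Gnas locus. Kcnq1ot1 had 193 counts in C2 ceramide day 4, 255 in DMSO day 4 and 162 in DMSO day 3. Gnasas1 had 75.7, 105.32 and 132.13 counts (1.53, 1.97 and 2.76 TPM), and Airn had 6, 2 and 0 counts.

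Of the 258 antisense genes named for the opposite strand of a gene, 16 were among the members. Outside the rank limit, and chosen after their values were seen, 3 more bear the name of a developmental gene. Dlx4os had 26 counts in C2 ceramide day 4, 5 in DMSO day 4 and 18 in DMSO day 3. Srrm4os, opposite a neural splicing factor gene, had 35, 22 and 3 counts. Zeb2os, opposite a transcription factor gene of epithelial to mesenchymal transition, had 21, 7 and 2 counts. With so few counts these are given as values only.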
